A study of Mus musculus with 9 samples.

Results

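The 10 genes of axon injury and of cellular stress described here were Ecel1, Gap43, Sprr1a, Jun, Atf3, Ddit3, Trib3, Atf4, Xbp1 and Gadd45a. They were named with earlier results of these data known, though by a rule that sets no measured threshold, and each was found by its symbol in the platform annotation and represented by its brightest transcript cluster, the array's unit for a transcript. All 10 were measured, out of 30738 genes with 1 symbol. RNA came from motor neurons (MNs) of 9 wild-type FVB mice of a single litter, each injected in both hindlegs, at postnatal day 14, with wheat germ agglutinin coupled to peroxidase (WGA-HRP, 20 µg/ml), a tracer carried back from muscle to the MN cell body. The extensor digitorum longus (EDL, resistant in spinal muscular atrophy, SMA) received 1 µl, and the gastrocnemius (GS, intermediate) and tibialis anterior (TA, vulnerable) received 3 µl each, with 3 mice per muscle. Stained MNs were cut out by laser 48 hours later, about 100 ng of RNA per mouse, and each mouse gave 1 array.

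No mouse carried a disease allele in the sample labels or the methods, although the series text speaks of an SMA background. The labels name the cervical cord and sections of 20 µm, whereas the methods give lumbar MNs and sections of 35 µm. All mice had surgery on the skin of the leg and tracer in the muscle, and uninjected mice were not analysed here, so the values compare injected pools with each other and have no uninjured baseline. Tracer volume follows the EDL pool and cannot be told apart from muscle. Each array pools the captured cells of 1 mouse, so that fewer cells of a type and less RNA per cell cannot be told apart.

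When a motor axon is damaged, kinases of the dual leucine zipper and JNK families carry a signal to the nucleus, where the AP-1 protein c-Jun and its partner ATF3 are raised and switch on growth genes such as Gap43, Sprr1a and Ecel1. The integrated stress response is a separate arm, in which phosphorylation of the initiation factor eIF2 lowers general translation but favours that of ATF4, and ATF4 in turn raises Ddit3 (the protein CHOP) and Trib3. Misfolded protein in the endoplasmic reticulum (ER) feeds into that arm through the kinase PERK and also acts through IRE1, which splices Xbp1 mRNA. Both arms are studied in MN disease, and the growth genes are also used by young motor axons that are still maturing at their muscles.

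The stretches before the start sites of 4 members are shown because they hold the DNA motifs by which these arms are usually described. Jun and Ddit3 lay above the median of the array's negative controls on all 9 arrays, Sprr1a on 1 and Atf3 on 0. The sequences are from RefSeq (GRCm38.p6), cover the 250 bases before the start and run 5′ to 3′ on the gene's strand. Of the 10 members, 9 had an entry, and Gap43 is named only. Capitals mark matches, on either strand, to TGANTCA (AP-1), TGACATCA (the Jun-type AP-1 site), TGACGTNA (CRE-like) or TGATGNAA (the amino acid response element), none of which overlapped another. The windows lie at chr3:92485882-92486131 (minus strand) for Sprr1a, chr4:95052223-95052472 (minus) for Jun, chr10:127290543-127290792 (plus) for Ddit3 and chr1:191183334-191183583 (minus) for Atf3.
Sprr1a: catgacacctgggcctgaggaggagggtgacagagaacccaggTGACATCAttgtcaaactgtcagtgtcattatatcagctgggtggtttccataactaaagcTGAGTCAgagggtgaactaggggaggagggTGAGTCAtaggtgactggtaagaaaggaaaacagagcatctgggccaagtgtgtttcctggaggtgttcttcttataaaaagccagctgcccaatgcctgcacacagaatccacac
Jun: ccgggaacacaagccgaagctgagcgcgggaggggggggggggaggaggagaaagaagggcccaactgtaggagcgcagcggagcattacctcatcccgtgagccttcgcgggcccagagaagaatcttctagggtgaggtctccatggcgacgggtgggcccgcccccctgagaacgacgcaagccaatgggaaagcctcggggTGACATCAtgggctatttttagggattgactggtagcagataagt
Ddit3: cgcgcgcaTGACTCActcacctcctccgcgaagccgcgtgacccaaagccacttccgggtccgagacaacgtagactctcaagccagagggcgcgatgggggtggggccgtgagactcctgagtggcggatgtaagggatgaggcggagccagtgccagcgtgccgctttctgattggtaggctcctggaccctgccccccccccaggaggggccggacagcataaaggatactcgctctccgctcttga
Atf3: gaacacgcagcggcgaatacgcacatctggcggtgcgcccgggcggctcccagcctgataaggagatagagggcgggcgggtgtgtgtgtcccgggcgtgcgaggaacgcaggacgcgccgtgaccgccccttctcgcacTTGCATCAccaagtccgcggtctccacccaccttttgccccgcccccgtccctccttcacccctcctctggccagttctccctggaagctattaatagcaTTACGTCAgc
In Sprr1a the AP-1 letters stood at -146 to -140 and at -116 to -110 from the start, and the Jun-type letters at -207 to -200. Jun held the Jun-type letters at -45 to -38, Ddit3 held AP-1 letters at -242 to -236, and Atf3 held CRE-like letters at -10 to -3 and the amino acid response letters at -110 to -103. Among all 32851 RefSeq windows of the same length, 6.75% held the AP-1 letters, 2.93% the Jun-type, 2.52% the CRE-like and 3.45% the amino acid response letters. None of these 4 motifs was found in the windows of Ecel1, Gadd45a, Trib3, Atf4 and Xbp1, and the ER stress element, a CCAAT box followed at a fixed distance by CCACG and held by 0.113% of windows, was found in none of the 9. The motifs were chosen with the genes in view, and a match is a run of letters, not a bound site.

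The arrays did not separate signal from background equally well, and this moved with the pools. The area under the ROC curve that separates positive from negative array controls was 0.844 to 0.854 on EDL arrays, 0.831 to 0.838 on GS arrays and 0.828 on the array of TA mouse M3, but 0.779 and 0.778 on those of TA mice M0 and M1. Results were therefore also computed without M0 and M1, which leaves 1 TA array, assumed to vary like the other pools. Of 13 MN identity markers, 11 lay above the median negative control on all 9 arrays and Lhx3 and Prdm8 below it on all, and the summed level of the 13 was 19.03 to 19.13 (log2) in EDL, 18.88 to 19.02 in GS and 18.05 to 18.94 in TA. The microglial markers Aif1, P2ry12, C1qb, C1qc and Trem2 lay below the median negative control on every array, and none of the 12 microglial markers measured was called between EDL and TA. Of 8 astrocyte markers Slc1a2 was called lower in EDL than in TA (-0.43). Another 3 had higher means in EDL without a call (Aldoc 0.90, Gfap 0.30 and S100b 0.24). The summed astrocyte level was 16.18 to 16.39 in EDL, 16.26 to 16.39 in GS and 16.04 to 16.20 in TA. Of 8 endothelial and pericyte markers Cldn5 was called higher in EDL than in TA (1.27) while the other 7 had lower means. Their summed level was 11.67 to 11.96 in EDL, 11.90 to 12.13 in GS and 11.94 to 12.37 in TA. Summed oligodendrocyte markers were 16.40 to 16.49 in EDL, 16.56 to 16.64 in GS and 16.53 to 16.94 in TA. Summed interneuron markers were 11.89 to 12.21, 12.65 to 13.72 and 12.22 to 13.01. Both sums were lower on every EDL array than on all others, but a sum follows its brightest markers. The mean deviation per marker from EDL did not set TA mice M1 and M3 above the EDL arrays. It was -0.01 and -0.09 for oligodendrocyte markers (EDL arrays -0.05 to 0.05). For interneuron markers it was -0.05 and -0.01 (EDL arrays -0.05 to 0.05). The GS arrays and M0 lay above the EDL arrays by both measures. The part of these cells in the results was not tested.

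**Figure D1:**
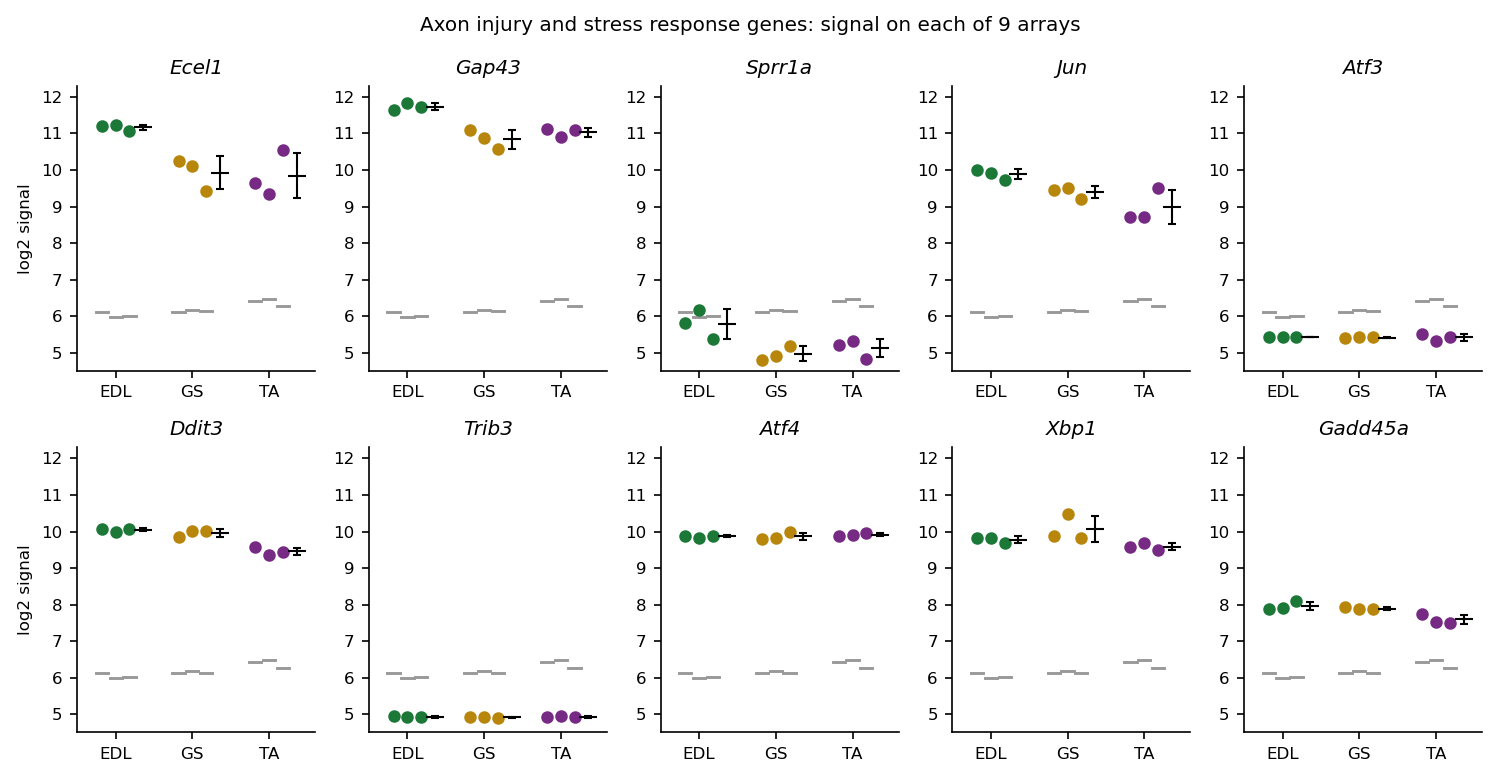
Signal (log2) of the 10 genes on each array; each point is 1 mouse, ordered as M11, M14, M33 (EDL), M13, M30, M31 (GS) and M0, M1, M3 (TA), with the mean and SD of each pool beside it, and grey dashes give the median of the negative controls on that array. All 3 EDL points lie above all GS and TA points for Ecel1, Gap43, Sprr1a and Jun, and Atf3 and Trib3 lie below the grey dashes on every array.

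Ecel1, a membrane endopeptidase of the neprilysin family that injured MNs raise and that motor axons need to branch within muscle, was brightest in EDL MNs. Its log2 signal was 11.20, 11.22 and 11.07 in EDL mice M11, M14 and M33, 10.24, 10.12 and 9.42 in GS mice M13, M30 and M31, and 9.65, 9.34 and 10.54 for TA mice M0, M1 and M3. The 3 EDL values lay close together and above all 6 others, while GS and TA overlapped. EDL MNs had a mean of 11.17 ± 0.08 (SD, n = 3), against 9.93 ± 0.44 for GS and 9.85 ± 0.62 for TA MNs. EDL exceeded TA by 1.32 ± 0.33 (SE), or 2.50-fold, which did not pass after adjustment over all clusters (limma, adjusted p = 0.0636), and exceeded GS by 1.24 ± 0.33 (adjusted p = 1). Ranked from the most higher in EDL to the most lower, Ecel1 was number 6 of the 30738 genes for EDL minus GS. GS and TA differed by 0.08 (95% interval -0.68 to 0.85). The size of the TA step depended on which TA arrays entered, and without M0 and M1 EDL minus TA was 0.63 (adjusted p = 0.436), and without M3 it was 1.67 (adjusted p = 0.00650).

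Gap43, a membrane phosphoprotein of growth cones that is abundant while axons extend or regrow, was also highest in EDL. The arrays read (log2) 11.64, 11.83 and 11.72 in EDL mice M11, M14 and M33, 11.09, 10.87 and 10.56 in GS mice M13, M30 and M31, and 11.12, 10.90 and 11.09 for TA mice M0, M1 and M3. EDL did not overlap either pool, GS and TA did, and M0 and M1 did not stand apart from M3 for this gene. EDL exceeded TA by 0.69 ± 0.13 (SE; 11.73 ± 0.09 against 11.04 ± 0.12, SD, n = 3), a 1.62-fold difference that passed (limma, adjusted p = 0.0354). The difference from GS was 0.89 ± 0.13 (1.85-fold) with an adjusted p of 0.940, in a comparison where no cluster of the array passed, and only 8 of the 30738 genes had a larger absolute moderated t. GS lay below TA by 0.20, a difference whose 95% interval ran from -0.51 to 0.12. The EDL minus TA call did not hold once any EDL mouse, GS mouse M30, TA mouse M0 or TA mouse M1 was left out (0.62 to 0.74, adjusted p = 0.0710 to 0.129), nor with M0 and M1 both left out (0.64, adjusted p = 0.204). It also failed after quantile normalization (0.52, adjusted p = 0.0763), with array weights (adjusted p = 0.0572), without moderation (0.0925) and with the spread of EDL and TA alone (0.0655), and passed in 8 of 19 alternatives.

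Sprr1a, a small proline-rich protein that is almost absent from intact neurons and strongly induced after axotomy, stayed at background. It lay below the median negative control on 8 of 9 arrays, and only EDL mouse M14 exceeded it. Its log2 signal was 5.80, 6.17 and 5.37 in EDL mice M11, M14 and M33, 4.79, 4.92 and 5.19 in GS mice M13, M30 and M31, and 5.22, 5.32 and 4.84 for TA mice M0, M1 and M3. The EDL values were the 3 highest, by a narrow margin over TA. EDL minus TA was 0.66 ± 0.22 (adjusted p = 0.136) and EDL minus GS 0.82 ± 0.22 (adjusted p = 1), at a level within the background of the array.

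Jun, which encodes the AP-1 subunit c-Jun and is phosphorylated by JNK in injured neurons, had its highest mean in EDL and its lowest in TA, and the TA mean rested on 2 of its arrays. The log2 values of the gene were 10.002, 9.92 and 9.73 in EDL mice M11, M14 and M33, 9.47, 9.51 and 9.21 in GS mice M13, M30 and M31, and 8.71, 8.72 and 9.51 for TA mice M0, M1 and M3. EDL lay above all others, and TA mouse M3 lay at the level of the GS mice. The SD was 0.14 in EDL, 0.16 in GS and 0.46 in TA. The errors come from a single spread over the pools, so the TA arrays also widen that of EDL minus GS. EDL minus TA was 0.90 ± 0.22 (1.87-fold, limma, adjusted p = 0.0602), EDL minus GS 0.49 ± 0.22 (adjusted p = 1) and GS minus TA 0.41 ± 0.22 (adjusted p = 0.408). Without M0 and M1 the first of these fell to 0.37 (adjusted p = 0.326) and GS minus TA turned to -0.12 (adjusted p = 0.956). Without M3 they were 1.17 (adjusted p = 0.00139) and 0.68 (adjusted p = 0.0153).

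Atf3, the partner of c-Jun that marks axotomised neurons and is hardly expressed in intact ones, gave no signal above background in any pool. Its log2 values ran from 5.33 to 5.51 over the 9 arrays, below the median negative control on each, and 6 arrays held the same value, 5.42. EDL and TA differed by 0.003 (95% interval -0.11 to 0.12). At that level the array could not show whether the pools differ in Atf3.

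Ddit3, which encodes CHOP, the C/EBP family factor at the end of the ATF4 arm, was lower in TA than in both other pools. Its log2 signal was 10.08, 9.995 and 10.06 in EDL mice M11, M14 and M33, 9.84, 10.01 and 10.03 in GS mice M13, M30 and M31, and 9.57, 9.37 and 9.44 for TA mice M0, M1 and M3. All 3 TA mice lay below all 6 others, M3 among them, and EDL and GS overlapped. EDL exceeded TA by 0.59 ± 0.07 (SE; 10.05 ± 0.04 against 9.46 ± 0.10, SD, n = 3), or 1.50-fold (limma, adjusted p = 0.0131), and GS exceeded TA by 0.50 ± 0.07, or 1.41-fold (adjusted p = 0.0428). EDL and GS differed by 0.09 (95% interval -0.08 to 0.25). Without M0 and M1 the differences kept their size, 0.60 (adjusted p = 0.0496) for EDL and 0.52 (adjusted p = 0.0949) for GS. The EDL minus TA call did not hold with any EDL mouse left out (adjusted p = 0.0520 to 0.0632), and the GS minus TA call held, of the 9 mice left out in turn, only for M3 (adjusted p = 0.0513 to 0.177 for the others).

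A further cluster of Ddit3, which the array design leaves without a chromosome, had almost the same mean (9.818 against 9.822). It read 10.32, 10.22 and 10.47 in EDL mice M11, M14 and M33, 9.83, 9.90 and 10.09 in GS mice M13, M30 and M31, and 9.26, 8.78 and 9.50 for TA mice M0, M1 and M3. The order of the pools was the same and the steps were wider, with EDL above GS on every array. EDL minus TA was 1.15 ± 0.18 (adjusted p = 0.0211), EDL minus GS 0.39 ± 0.18 (adjusted p = 1) and GS minus TA 0.76 ± 0.18, which did not pass (adjusted p = 0.104).

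Trib3 and Atf4, on either side of Ddit3 in the ATF4 arm, gave no call in any comparison. Trib3, a pseudokinase gene raised by ATF4 and CHOP together, lay below the median negative control on all 9 arrays, between 4.90 and 4.96. Atf4, whose protein is set mainly by translation, was flat, at 9.89, 9.83 and 9.89 in EDL mice M11, M14 and M33, 9.79, 9.82 and 9.98 in GS mice M13, M30 and M31, and 9.89, 9.89 and 9.96 for TA mice M0, M1 and M3. The pools overlapped and EDL minus TA was -0.04 (95% interval -0.18 to 0.09, adjusted p = 0.695).

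Xbp1, the target of IRE1, was read here without regard to splicing, which is what activates it. The log2 signal per array was 9.83, 9.83 and 9.67 in EDL mice M11, M14 and M33, 9.89, 10.49 and 9.82 in GS mice M13, M30 and M31, and 9.58, 9.68 and 9.50 for TA mice M0, M1 and M3. GS mouse M30 stood above the other 8 arrays, and GS did not overlap TA. GS minus TA was 0.48 ± 0.17 (adjusted p = 0.233), and 0.27 without M30. EDL minus TA was 0.19 ± 0.17 (adjusted p = 0.546). Summed interneuron markers were also highest in M30 (13.72 on the log2 scale against 11.89 to 13.03 elsewhere), and their part in the Xbp1 value was not tested.

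Gadd45a, a growth arrest gene that p53 and axotomy raise, had close means, the lowest in TA. Its log2 signal was 7.88, 7.89 and 8.09 in EDL mice M11, M14 and M33, 7.93, 7.87 and 7.87 in GS mice M13, M30 and M31, and 7.75, 7.52 and 7.51 for TA mice M0, M1 and M3. TA overlapped neither pool, EDL and GS overlapped, and the highest TA value belonged to M0, 1 of the arrays with low control separation. EDL minus TA was 0.36 ± 0.08 (1.29-fold, limma, adjusted p = 0.0518) and GS minus TA 0.29 ± 0.08 (adjusted p = 0.152). Leaving out M0 alone brought EDL minus TA past the threshold (0.44, adjusted p = 0.0405), and leaving out M0 and M1 did not (0.45, adjusted p = 0.0862).

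**Figure D2:**
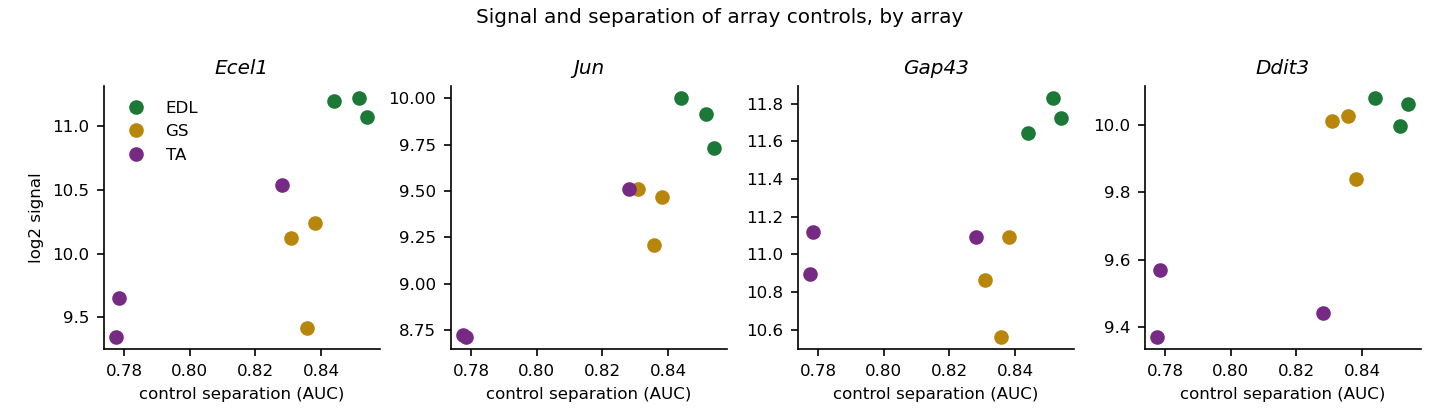
Log2 signal of Ecel1, Jun, Gap43 and Ddit3 on each array against the area under the ROC curve (AUC) for positive against negative array controls; each point is 1 mouse, coloured by pool. TA mice M0 and M1, at 0.779 and 0.778, hold the lowest Jun values, whereas for Gap43 and Ddit3 they lie with TA mouse M3 at 0.828.

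Over the 10 genes, 2 were called higher in EDL than in TA (Ddit3 and Gap43) and none lower, where 5.08% of all 65956 clusters were called, 2.86% higher and 2.22% lower. At an unadjusted p under 0.05, 6 were higher and 0 lower, where 9.19% of clusters were higher and 13.7% lower. The same 6 genes, Ddit3, Gap43, Ecel1, Jun, Gadd45a and Sprr1a, had all EDL arrays above all TA arrays, as did 9.23% of clusters, while 14.5% lay below. The median difference of the 10 genes was 0.47, beside -0.04 over all clusters. For the 13 MN identity markers the median was 0.37, with 12 of the differences above 0 and that of Lhx3 at -0.002. None of these markers was called, and 6 passed an unadjusted p under 0.05, each with EDL as the brighter pool. Whether the 10 genes moved beyond these MN markers was not tested.

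Between GS and TA 1 gene was called (Ddit3, higher in GS), where 0.634% of clusters were called, and the median was 0.04. At an unadjusted p under 0.05, Ddit3, Xbp1 and Gadd45a were higher in GS and 0 genes lower, where 7.42% of clusters were higher and 8.31% lower. The GS and TA arrays did not overlap for these 3, which lay higher in GS as did 7.53% of clusters, while 8.09% lay below. Between EDL and GS none of the 10 was called, as no cluster of the array was (0%), and the median was 0.08. At an unadjusted p under 0.05, Ecel1, Gap43 and Sprr1a were higher in EDL and 0 genes lower, where 1.51% of clusters were higher and 2.16% lower. All EDL arrays lay above all GS arrays for these 3 and for Jun, as for 5.18% of clusters, while 6.65% lay below. These comparisons share arrays, so that their values are not independent of each other.

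**Figure D3:**
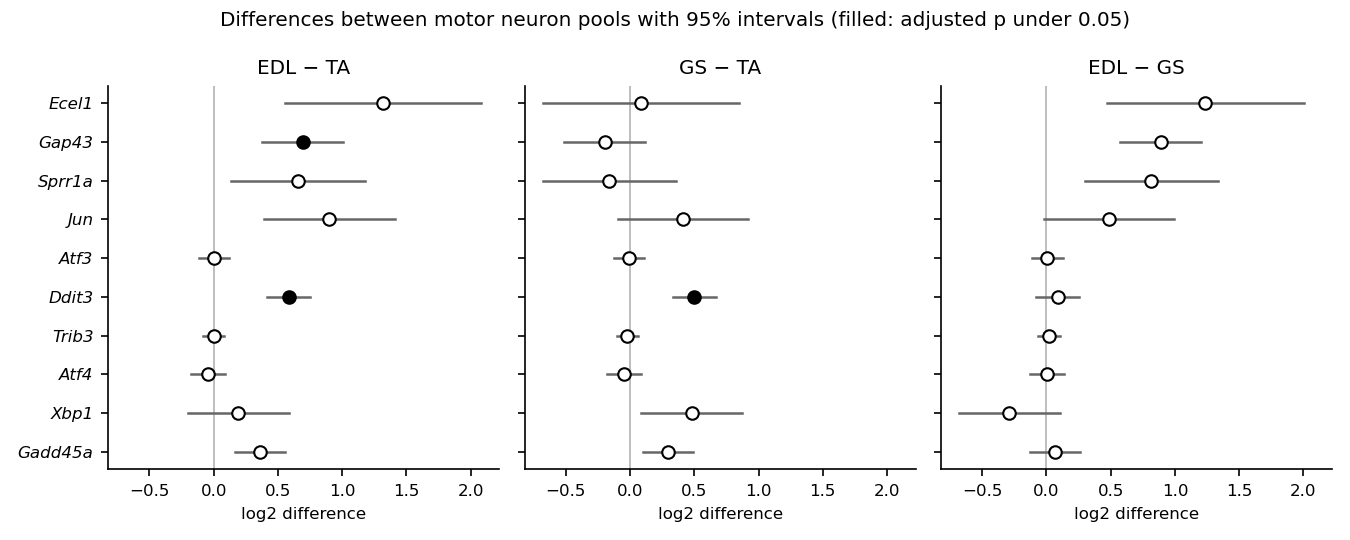
Differences in log2 signal between pools for the 10 genes, with 95% intervals from the moderated test; filled points have an adjusted p under 0.05. Ddit3 and Gap43 are filled in EDL minus TA, Ddit3 alone in GS minus TA and none in EDL minus GS, where the intervals of Ecel1, Gap43 and Sprr1a lie above 0.

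Setting the pool with 1 µl of tracer against both pools with 3 µl gave another grouping. EDL lay above all 6 GS and TA arrays for 4 of the 10 genes, Ecel1, Gap43, Sprr1a and Jun, where 3.52% of all clusters did so and 3.84% lay below all 6. The difference from the mean of GS and TA was 1.28 ± 0.28 (SE) for Ecel1 (limma, adjusted p = 0.147), 0.79 ± 0.12 for Gap43 (adjusted p = 0.0661), 0.74 ± 0.19 for Sprr1a (adjusted p = 0.179) and 0.69 ± 0.19 for Jun (adjusted p = 0.187). None of the 10 passed, in a comparison that called 0.0804% of clusters. These 4 genes belong to axon injury and growth, and Sprr1a among them lay at background. Summed oligodendrocyte and interneuron markers, given above, also set every EDL array apart from the other 6. Their mean deviation per marker did not set TA mice M1 and M3 above the EDL arrays. The part of these markers in this grouping was not tested. For Ddit3 and Gadd45a it was TA that overlapped neither other pool. In the further Ddit3 cluster, EDL also lay above all 6 GS and TA arrays (0.77 ± 0.15, limma, adjusted p = 0.122). The same order held for Asns, Eif2b3 and Eif2b4, genes of the integrated stress response described below. These were named because they were called higher in EDL than in TA, so their high EDL values were selected. Whether this order favours genes of axon injury and growth was not tested. In an F test over the 3 pools, which called 1.59% of clusters, Ddit3 (adjusted p = 0.0277) and Gap43 (adjusted p = 0.0442) passed.

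**Figure D4:**
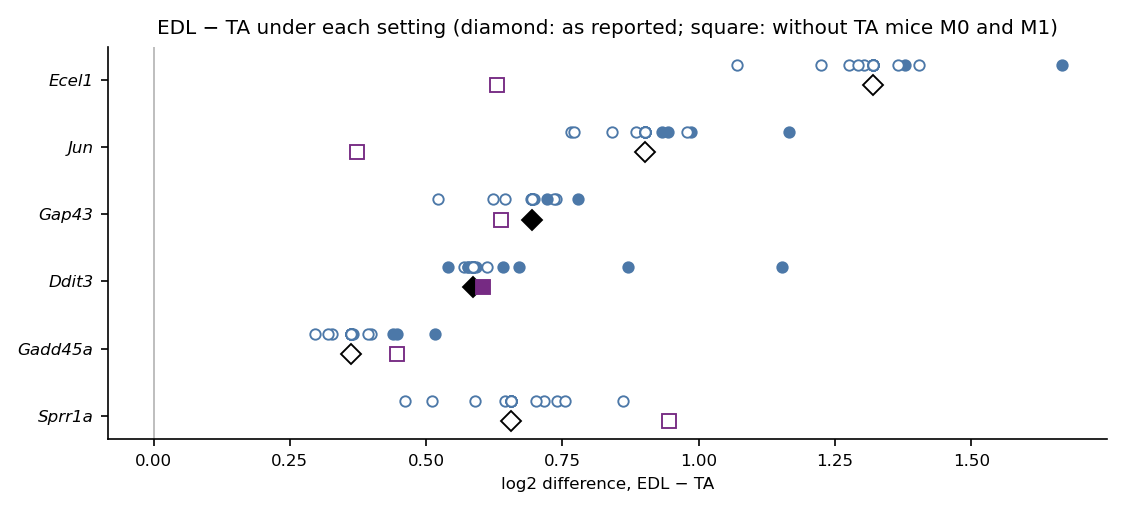
EDL minus TA difference (log2) of 6 genes as reported (diamond), without TA mice M0 and M1 (square) and under the other settings tried (circles); filled symbols have an adjusted p under 0.05. Jun and Ecel1 fall to 0.37 and 0.63 without M0 and M1, Ddit3 stays at 0.60 and filled, and all values lie above 0.

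Of the genes around these 10, chosen as 8 lists by role, 8 of 129 were called higher in EDL than in TA and 0 lower (6.20%, beside 5.08% of all clusters). Of 8 genes listed around the kinases and scaffolds that carry the injury signal, 1 was called, which is not itself a kinase or scaffold gene. This was Sarm1, the NAD-consuming enzyme that executes axon degeneration, with 7.32, 7.41 and 7.36 in EDL, 7.18, 7.06 and 7.12 in GS and 6.97, 7.04 and 7.15 in TA (0.31, adjusted p = 0.0330). The kinase genes Map3k12 and Mapk8 were not called (-0.05 and 0.21), and the list's median was -0.05.

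Of 12 other transcription factors of regeneration 1 was called, where 5.08% of all clusters were. This was Sox11, which drives axon growth programmes in developing and injured neurons. It read 9.34, 9.45 and 9.30 in EDL, 9.03, 9.22 and 9.15 in GS and 8.54, 8.65 and 9.04 in TA (0.62 ± 0.13, adjusted p = 0.0407). With M0 and M1 left out the difference was 0.32 (adjusted p = 0.166). The list's median difference was -0.0006. Of 29 other effector genes, 3 were called: the tubulin gene Tubb2b by 1.29 ± 0.23 (adjusted p = 0.0279), the stathmin gene Stmn4 by 0.81 ± 0.13 (adjusted p = 0.0245) and the small heat shock protein gene Hspb1, a motor neuropathy gene that injured neurons raise, by 0.58 ± 0.07 (adjusted p = 0.0132). Their median was 0.12, and 9 of the 29, the neuropoietic cytokine gene Lif and Socs3 among them, lay below the median negative control on all arrays. Hspb1 read 8.77, 8.60 and 8.71 in EDL, 8.37, 8.43 and 8.41 in GS and 8.15, 7.98 and 8.21 in TA, with no overlap between any of the pools.

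For the integrated stress response, 2 of 13 genes of its kinases, phosphatases, eIF2 and the exchange factor eIF2B were called, beside 5.08% of all clusters. Both encode subunits of eIF2B, Eif2b3 (0.59, adjusted p = 0.0271) and Eif2b4 (0.42, adjusted p = 0.0314). The 4 eIF2 kinase genes Eif2ak1 to Eif2ak4 were not called (-0.12, 0.18, 0.002 and -0.004). Of 26 targets other than the members 1 was called, the asparagine synthetase gene Asns, whose log2 signal was 11.97, 12.09 and 11.90 in EDL, 11.62, 11.58 and 11.40 in GS and 10.93, 10.43 and 11.43 in TA (1.05 ± 0.22, adjusted p = 0.0442). EDL lay above all others, and without M0 and M1 the difference was 0.55 (adjusted p = 0.0832). The targets' median difference was 0.09.

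For the unfolded protein response, none of 5 sensor genes and none of 23 targets was called, where 5.08% of all clusters were. At an unadjusted p under 0.05, 1 sensor gene was higher and 1 lower, and 4 targets were higher and 1 lower. Of all clusters, 9.19% were higher and 13.7% lower at that threshold. The sensor-side gene with the widest difference was Rtcb, the ligase that joins Xbp1 mRNA after its cut (0.29, adjusted p = 0.100). Among targets it was Selenos, an ER membrane selenoprotein of protein retrotranslocation, at 10.18, 10.17 and 10.39 in EDL, 10.19, 10.28 and 10.16 in GS and 8.67, 8.61 and 9.76 in TA (1.23, adjusted p = 0.0535). It separated TA from both other pools, as did Ddit3, but its distance came largely from M0 and M1, without which it was 0.48 (adjusted p = 0.0952). None of 13 immediate early genes was called and none passed an unadjusted p under 0.05; the widest difference was that of Fos (0.39, adjusted p = 0.320). Between GS and TA no gene of the 8 lists was called, where 0.634% of all clusters were. None was called between EDL and GS either, where no cluster of the array was (0%). At an unadjusted p under 0.05, 5 targets of the integrated stress response were higher in GS than in TA and 0 lower, and 4 targets of the unfolded protein response were higher and 2 lower, where 7.42% of all clusters were higher and 8.31% lower. At that threshold 0 of either list differed between EDL and GS, where 1.51% of all clusters were higher in EDL and 2.16% lower.

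**Figure D5:**
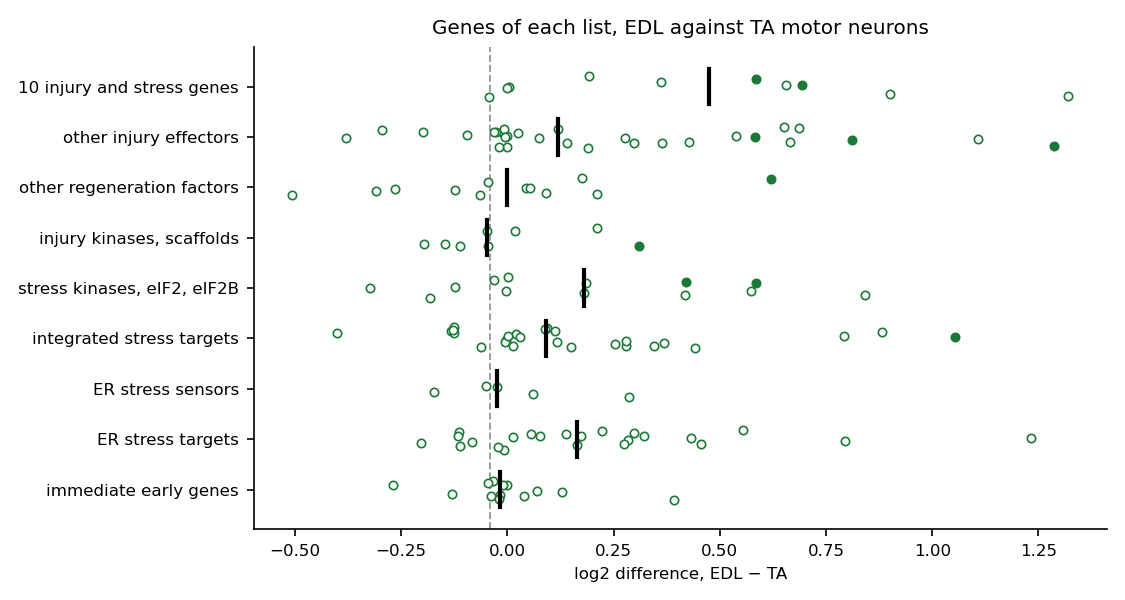
EDL minus TA difference in log2 signal for each gene of the 10 and of the 8 lists around them; filled points have an adjusted p under 0.05, black bars are list medians and the dashed line is the median of all clusters (-0.04). The 10 genes have a median of 0.47, and the list medians run from -0.05 to 0.18.

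The calls in these lists were sensitive to single arrays. With 1 mouse left out, the Hspb1 call was lost only without EDL mice M11 or M33 (adjusted p up to 0.0640), those of Tubb2b and Stmn4 without 6 of the 9 mice, those of Eif2b3 and Eif2b4 without 7 and those of Sarm1, Sox11 and Asns without 8. None of these 8 calls held with both M0 and M1 left out, which leaves 1 TA array (adjusted p = 0.0518 to 0.166). The differences then were 0.44 for Eif2b4, 0.48 for Hspb1, 1.01 for Tubb2b, 0.57 for Stmn4, 0.21 for Sarm1, 0.38 for Eif2b3, 0.55 for Asns and 0.32 for Sox11, so that all stayed above 0 and that of Eif2b4 alone was not smaller. In that fit 1 other gene each of the effectors, the eIF2 group and the targets of the integrated stress response was called. Without M3, 10 of the 26 targets of the integrated stress response, 6 of the 29 effectors and 6 of the 23 unfolded protein response targets were called, where 15.9% of all clusters were. M0 and M1 were also the arrays with the lowest control separation, whose part in these counts was not tested.

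The genes most like Ecel1 over the 9 arrays, among 2582 genes with signal above the 95th percentile of negative controls, were Resp18 (root mean square difference of 0.24 on the log2 scale after centring), Serpina3n (0.31) and Fabp3 (0.33). Resp18, which encodes a neuroendocrine secretory granule protein, read 13.23, 13.24 and 13.24 in EDL, 12.61, 12.63 and 12.18 in GS and 12.17, 11.59 and 12.63 in TA. As for Ecel1, M3 was the highest TA mouse, here level with the highest GS mouse. Nearest to Jun were Atp6v1h (0.11), a subunit gene of the vacuolar proton pump, Apoo (0.14) and Snx32 (0.14). Nearest to Gap43 were Gng3 (0.22), a neuronal G protein subunit gene, Wfs1 (0.23) and Actr1a (0.24). These genes were picked for their likeness, and these distances carry no test.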

How the data were processed

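RNA of laser-captured MNs was measured on GeneChip Mouse Transcriptome Assay 1.0 arrays, 1 per mouse, and pools were taken from the sample labels. The deposited log2 values are the authors' sst-RMA signals (so named in their methods; the submitters' notes say RMA), in which probes were corrected for background, normalized and summarised per transcript cluster, with settings not given in the sources used here. They entered the fit with no further scaling. Of 72688 rows, 6732 array controls were left out and the other 65956 transcript clusters were tested, of which 31292 had 1 symbol and 1522 several, whose symbols were not used. The number of arrays limits the precision. Values of a cluster that recur exactly on 2 or more arrays (5 decimals) were found in 61.65% of clusters. Equal values also occurred among the 10 genes. They included Atf4 in EDL mice M11 and M33 (9.8898) and Gadd45a in GS mice M30 and M31 (7.8684). Gap43 had 11.0942 in both GS mouse M13 and TA mouse M3. The part of such ties in the SDs was not tested.

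With limma (version 3.58.1, R 4.3.3), 1 mean per pool and a single spread were fitted over all 9 arrays (6 residual and 1.40 prior degrees of freedom), and p-values were adjusted over all clusters by Benjamini-Hochberg, with a call at an adjusted p under 0.05. The fit was tested on simulated data with independent normal noise of equal spread in all pools. Changes were planted only in clusters with a spread below the median. The simulation held no recurring values and no arrays of low control separation, so it does not show how the calls fare under these. The 10 genes, the lists and the motifs were chosen with earlier results of these data known. From each list, up to 3 called genes with the largest difference were named, or the gene with the largest difference where none was called. Alternatives were other normalizations, tests, filters and clusters, and leaving out mice. Litter mates are separate animals, but all TA mice bear lower numbers than the others, and a batch that follows the numbers cannot be told apart from the TA pool.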

Additional observations from a re-analysis of the deposited data

How the results depend on the processing

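Against 19 alternatives, the EDL minus TA differences of Ecel1, Gap43, Sprr1a, Jun, Ddit3, Xbp1 and Gadd45a stayed above 0, and the calls moved. The count of the 10 genes called between EDL and TA, 2 as reported, was 4 with arrays centred on their medians (with Jun and Gadd45a), 5 with dim clusters left out (which gave no value for Atf3, Sprr1a and Trib3 and tested fewer clusters), 1 without moderation, 1 without TA mice M0 and M1, 0 with the spread taken from the compared pools alone, and 0 (without an EDL mouse) to 4 (without TA mouse M3) with 1 mouse left out. The count between GS and TA, 1 as reported, was 0 without moderation, with an intensity trend and robust prior, with array weights, with the mean of all clusters of a gene, without M0 and M1, with the other Ddit3 cluster (an alternative chosen after seeing the data) and with the spread of the compared pools alone, and 0 to 2 (without M3) with 1 mouse left out. For EDL against the mean of GS and TA, 0 as reported, it was 4 with array weights, 1 with dim clusters left out and, leaving out single mice, 0 to 4 (without M3). The share of all clusters called moved too. Between EDL and TA it was 6.29% centred and 17.5% with dim clusters left out, against 5.08% as reported. Without moderation it was 0.694%, and without M3 15.9%. Between GS and TA, 0.634% as reported, it was 10.9% without M3. For EDL against the mean of GS and TA, 0.0804% as reported, it was 3.7% with array weights and 8.27% without M3. The cause of these changes, and whether the 10 genes gained calls beyond these shares, was not tested.

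Signs that turned belonged to differences near 0 or to TA mice M0 and M1. GS minus TA without M0 and M1 was -0.61 for Ecel1, -0.12 for Jun and 0.13 for Sprr1a, and with 1 mouse left out it ran from -0.17 to 0.43 for Ecel1. Atf3 gave GS minus TA values of 0.0395 (centred) and 0.0192 (quantile normalized), and with 1 mouse left out ran from -0.0519 to 0.0392 for GS minus TA and from -0.0435 to 0.0476 for EDL minus TA. Atf4 gave 0.0408 for EDL minus TA (centred) and -0.0127 for EDL minus GS (quantile), and -0.0285 to 0.0619 for the latter with 1 mouse left out. Trib3 gave EDL minus TA values of 0.0843 (centred), 0.0459 (quantile) and 0.0155 (without M0 and M1), and -0.0156 to 0.0155 with 1 mouse left out, and GS minus TA values of 0.0246 (centred) and 0.0033 (quantile).

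Over all clusters the EDL minus TA count, 3351 as reported, ran from 4 (compared pools alone) to 10470 (without M3), and was 1199 without M0 and M1. No paired analysis was possible because no mouse number is shared between pools. Signal over background limits Atf3, Trib3 and Sprr1a, for which differences between pools could not be shown at this level. By a stricter floor, the 95th percentile of negative controls, only 2 of the 10 genes had a mean above it (Gap43 and Ecel1). Ddit3 and Xbp1 exceeded that percentile on 4 of 9 arrays, Jun and Atf4 on 3 and Gadd45a on 0.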

Other observations

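The 5 subunits of eIF2B, the exchange factor that the integrated stress response inhibits, were all higher on average in the EDL than in the TA pool, a group picked after its values were seen. The log2 differences were 0.18 for Eif2b1 (limma, adjusted p = 0.285), 0.84 for Eif2b2 (0.112), 0.59 for Eif2b3 (0.0271), 0.42 for Eif2b4 (0.0314) and 0.57 for Eif2b5 (0.0962). TA values spread widely for Eif2b2 (SD 0.59, against 0.16 in EDL) and Eif2b5 (0.36, against 0.10). The fit without M0 and M1 is given for Eif2b3 and Eif2b4 only. With TA mice M0 and M1 left out, Eif2b3 was 0.38 higher (adjusted p = 0.117) and Eif2b4 0.44 (adjusted p = 0.152). Among the transcription factors of the regeneration list, Klf7, a Krüppel-like factor that promotes axon growth, had a lower mean in EDL than in TA by 0.51 (adjusted p = 0.0544) and in GS than in TA by 0.59 (adjusted p = 0.0825), whereas Sox11 was higher in EDL.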
